A study of Homo sapiens with 18 samples.

Results

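The genes described here encode the pore-forming and accessory subunits of human potassium channels. They were taken as every gene of the deposited table, at any time, whose symbol is KCN followed by letters and a number, with at most 1 letter after it. This gave 73 of 21944 genes, and 30 of them (41.1%) reached a mean normalized count of 100, against 13118 of all genes (59.8%). The genes were chosen by name and not by value, but with earlier results of these data known. The 2 members just above 100 were *KCNG1* at 110.1 and *KCNJ2* at 114, and the 2 just below it were *KCNAB3* at 89.6 and *KCNQ3* at 85.3.

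The cells were pancreatic progenitors made from human embryonic stem cells, dissociated at day 19 of differentiation and reseeded in wells coated with LN411, a laminin isoform of low adhesion, or with fibronectin (FN), to which cells adhere strongly. RNA was collected 3, 6 or 24 h later, with 3 samples of each matrix at each time and 18 in all, and both matrices received the same dissociation and reseeding. The labels name the line HUES4 but also describe an SA121-derived line with a GFP reporter for *NEUROG3*. The paper gives the reporter line for this sequencing. The matrix is the only labelled difference between the groups compared at a time. Each value below is the log2 fold change of LN411 over FN with its standard error (SE), as deposited by the authors from a DESeq2 fit. Values of single samples were not analysed here, so replicate spread is seen in the SE alone, library depth is unknown, and no per-sample level can be shown. Genes with an adjusted p under 0.05 count as called, and intervals are 95% confidence intervals.

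Potassium channels let potassium leave the cell and so pull the membrane towards negative voltages. Voltage-gated channels open on depolarization, calcium- or sodium-activated channels open with those ions, inward rectifiers and two-pore domain channels set the resting potential, and accessory subunits change how the pores open, close or reach the membrane. In the islet, ATP-sensitive channels built from *KCNJ11* and the sulfonylurea receptor *ABCC8* close when glucose is metabolized, which depolarizes the beta cell and triggers insulin release.

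Pancreatic progenitor markers were present. All 8 genes examined were measured, among them *PDX1* at a mean normalized count of 12933 and *SOX9* at 20672, and the pluripotency genes *POU5F1* and *NANOG* were not in the table. Markers of other lineages were present too, with the hepatic gene *AFP* at 26676 and the mesenchymal gene *COL1A1* at 4091. These levels thus do not show that the cultures held progenitors alone. All 8 endocrine genes examined rose on LN411 at 24 h (median log2 fold change 1.73), against 1 of 8 called at 3 h and 2 of 8 at 6 h. *NEUROG3*, which starts endocrine differentiation, rose by 2.54 (SE 0.119, adjusted p = 1.99e-98) at 24 h. These endocrine genes move with the channel changes at 24 h described below, and their part in them was not tested. In RNA from a whole well, a different share of cells of a type and a different amount of RNA per cell cannot be told apart.

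Potassium channel transcripts were scarce. The 73 genes together made up 0.0313% of the summed mean normalized counts, and their median was 57.5, against 297 for all genes. By role, 13 of 29 voltage-gated genes reached 100, as did 1 of 7 calcium- or sodium-activated genes, 7 of 12 inward rectifiers, 4 of 12 two-pore domain genes and 5 of 13 accessory genes. Divided by the length of the longest transcript, *KCNJ16*, an inward rectifier subunit of transporting epithelia, had the highest level, at 637 normalized counts per kilobase. The two-pore domain leak channel *KCNK1* followed at 368 and the ether-a-go-go-like channel *KCNH3* at 343. *KCNH7* (197), *KCNK6* (152), *KCNK5* (149), *KCNH5* (143), *KCNMB4* (133), *KCNS3* (127) and *KCNT2* (122) made up the rest of the 10 highest on this scale. With the median transcript length in place of the longest, 7 of these 10 stayed among the 10 highest. The spread of these levels between samples is not known here, so neighbours in this order were not compared.

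**Figure D1:**
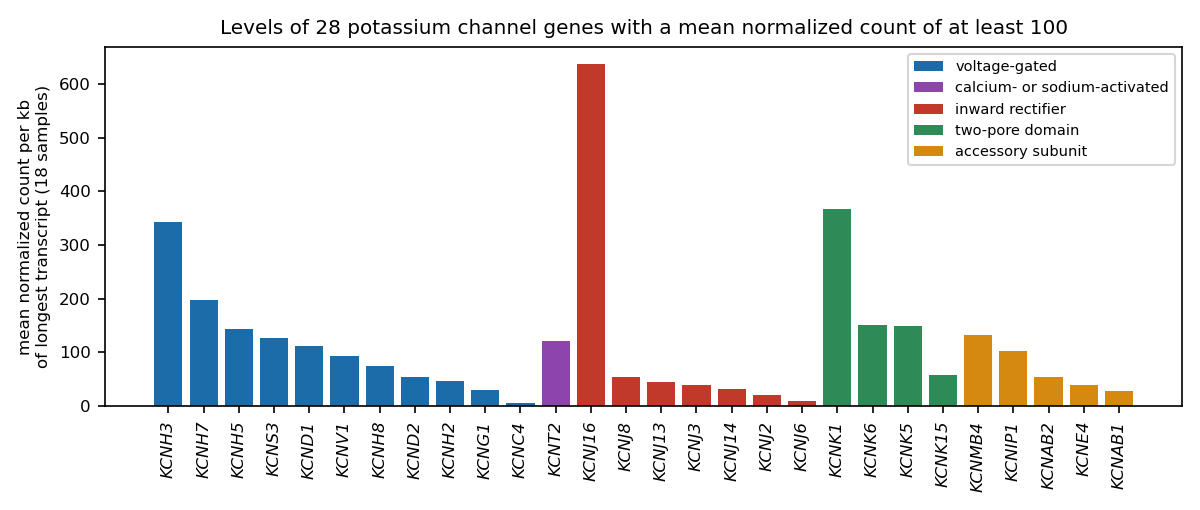
Levels of 28 potassium channel genes that reached a mean normalized count of 100, as bars of the mean normalized count over all 18 samples per kilobase of the longest transcript (y axis) for each gene (x axis), coloured by role. *KCNJ16* stands highest at 637, followed by *KCNK1* at 368 and *KCNH3* at 343.

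At 3 h no potassium channel gene was called among the 57 with an adjusted p, where 0.383% of all genes were called in either direction. At an unadjusted p under 0.05 there were 2 of 63 listed, 1 in each direction. The one higher on LN411 was *KCNH6*, an ether-a-go-go-related channel, at 1.16 (SE 0.547), whose mean normalized count of 14.9 left it without an adjusted p. Whether reads were counted by strand is not given in the sources used here, so reads of a gene and of one opposite to it cannot be told apart. Exonic overlaps with other genes are given below for some members only.

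At 6 h the called members were *KCNH3* and *KCNK1*, both higher on LN411. These were 2 of the 30 with an adjusted p, or 6.67%, against 4.9% of all genes called higher at that time. No member was called lower, where 3.33% of all genes were, and at an unadjusted p under 0.05 there were 4 higher and 3 lower. *KCNH3* rose by 0.26 (SE 0.0747, adjusted p = 0.0101) and *KCNK1* by 0.27 (SE 0.0785, adjusted p = 0.0122). Both calls were lost when p was taken from a t distribution with 12 degrees of freedom (adjusted p = 0.0966 and 0.103), and that of *KCNH3* also after GC content and length trends were removed (0.132). *KCNK1* was not called at 24 h, at 0.11 with an interval from -0.05 to 0.26, whereas *KCNH3* was.

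The comparison at 24 h asked which channel genes differed after a day on the low-adhesion matrix. Of 64 members with an adjusted p, 9 rose (14.1%) and 12 fell (18.8%) on LN411, where 16.7% of all genes rose and 12.8% fell. Among the 30 members that reached a mean normalized count of 100, 5 rose (16.7%) and 10 fell (33.3%), against 22.6% and 16.8% of all genes at that level. The median log2 fold change of these 30 was -0.09, against 0.02 for all genes at that level. Changes of at least 0.5 in either direction that were called came to 9 of the 30 (30%), against 8.31% of all genes at that level. The members' median absolute log2 fold change was 0.34 against 0.13, but they were also measured less precisely, with a median SE of 0.126 against 0.0625 and a median mean count of 312 against 1531. Whether the precision has a part in the larger values was not tested. By role, 4 voltage-gated genes rose and 6 fell of 25, 1 calcium- or sodium-activated gene fell of 6, 2 inward rectifiers rose and 3 fell of 12, 2 two-pore domain genes rose of 10, and 1 accessory gene rose and 2 fell of 11.

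**Figure D2:**
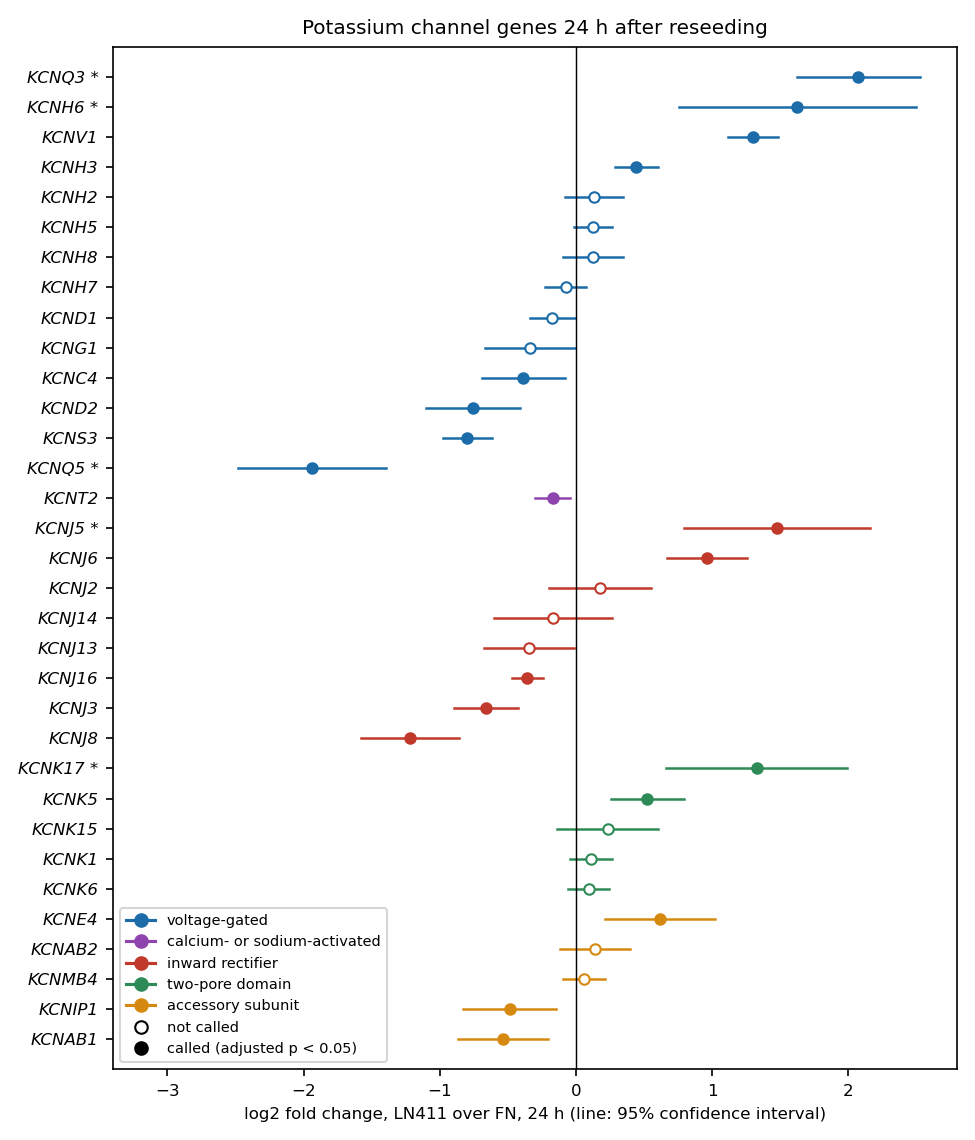
Log2 fold change of LN411 over FN at 24 h (x axis) with its 95% confidence interval (line) for 28 potassium channel genes that reached a mean normalized count of 100 and 5 called genes below it, marked with an asterisk, grouped by role. Filled points are 9 genes that rose and 10 that fell, and open points were not called; *KCNQ3* stands farthest right at 2.07 and *KCNQ5* farthest left at -1.94.

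Among the voltage-gated genes, *KCNQ3* and *KCNQ5* moved in opposite directions. Both encode subunits of channels that carry the M-current, a slow current that restrains repeated firing. *KCNQ3* rose by 2.07 at 24 h (SE 0.231, interval 1.62 to 2.53, adjusted p = 7.92e-18), which is 4.21-fold, after values of -0.14 at 3 h and 0.07 at 6 h. *KCNQ5* fell by 1.94 (SE 0.277, adjusted p = 5.08e-11) to 26.1% of its level on FN. Its values were already below 0 at 3 h (-0.39, SE 0.321) and 6 h (-0.53, SE 0.280), without a call. *KCNQ1*, the pore of a slow cardiac and epithelial current, was not called at 0.24 (SE 0.297, adjusted p = 0.615). The mean normalized counts of *KCNQ3*, *KCNQ5* and *KCNQ1* were 85.3, 50.3 and 44.02, all below 100, and *KCNQ5* shares 649 exonic bases with its antisense gene *KCNQ5-AS1*.

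A pair of silent subunits, which form no channel alone but join other voltage-gated pores and alter their gating, also moved apart. *KCNV1* had the smallest p of all members at 24 h and rose by 1.30 (SE 0.0942, interval 1.12 to 1.49, adjusted p = 1.59e-41), or 2.47-fold, at a mean normalized count of 643. It stood at 0.07 at 3 h and 0.02 at 6 h, and 553 of its 6912 exonic bases lie opposite a long noncoding RNA. *KCNS3* fell by 0.80 (SE 0.0922, interval -0.98 to -0.62, adjusted p = 1.5e-16) to 57.5% of its level on FN. The silent subunit *KCNG1* stood at -0.34 (SE 0.169, adjusted p = 0.119).

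*KCND2*, a pore of the fast A-type current, fell by 0.76 (SE 0.175, adjusted p = 0.000121), and *KCNIP1*, a calcium-binding subunit of the same channels, fell by 0.49 (SE 0.173, adjusted p = 0.0202). Both were near 0 at 3 and 6 h, with values between -0.06 and 0.03. The call of *KCNIP1* was lost with a t distribution (adjusted p = 0.0640). *KCND1* stood at -0.17 (SE 0.0840, adjusted p = 0.107) and *KCND3* at 0.27 (SE 0.211, adjusted p = 0.359). Of the KCND partners outside the gene family, *DPP10* rose by 0.66 (SE 0.0717, adjusted p = 6.57e-19) and *DPP6* stood at 0.10 (SE 0.0935, adjusted p = 0.472). The subunits of 1 kind of channel thus held both called rises and called falls.

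*KCNC4*, a further voltage-gated gene, fell by 0.39 (SE 0.154, adjusted p = 0.0434). Its call was lost with a t distribution (adjusted p = 0.0975) and after removal of GC content and length trends (0.103). Among the ether-a-go-go-related KCNH genes, *KCNH3* rose by 0.44 at 24 h (SE 0.0800, adjusted p = 3.56e-07), and was the only member called at both 6 and 24 h. Its values at those times differed by 0.18 (SE 0.109, adjusted p = 0.334), which did not pass the test. *KCNH6* rose by 1.63 (SE 0.445, interval 0.76 to 2.50, adjusted p = 0.00151) at a mean normalized count of 14.9. The more abundant *KCNH5* and *KCNH7* were not called and had narrow intervals, from -0.01 to 0.27 and from -0.22 to 0.07.

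The G-protein-gated inward rectifiers, which assemble in mixed tetramers and open when inhibitory receptors are active, divided as well. *KCNJ6* rose by 0.96 (SE 0.150, interval 0.67 to 1.26, adjusted p = 2.26e-09), or 1.95-fold, after -0.11 at 3 h and -0.01 at 6 h. *KCNJ5* rose by 1.48 (SE 0.347, adjusted p = 0.000156) at a mean normalized count of 26.1. Their usual partner *KCNJ3* fell by 0.66 (SE 0.120, adjusted p = 3.65e-07) to 63.2% of its level on FN, with values of -0.20 at 3 h and -0.25 at 6 h that were not called.

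The ATP-sensitive subunits gave 1 called fall. *KCNJ8*, the pore of the vascular and mesenchymal form, fell by 1.22 at 24 h (SE 0.184, interval -1.58 to -0.86, adjusted p = 6.27e-10) to 43.0% of its level on FN. It stood at 0.03 (SE 0.188) at 3 h and -0.08 (SE 0.186) at 6 h, and 268 of its 2511 exonic bases lie opposite a long noncoding RNA. Its receptor partner *ABCC9* was listed only at 24 h, at -1.38 (SE 0.664, adjusted p = 0.107) with a mean normalized count of 6.49. *KCNJ11*, the pore of the beta cell form, was not called, at 0.05 with an interval from -0.35 to 0.45. Its partner *ABCC8* rose by 1.17 (SE 0.375, adjusted p = 0.00860) at a mean normalized count of 27.5. Of 3 mesenchymal markers, *PDGFRB* fell by 0.66 (SE 0.200, adjusted p = 0.00506), and *COL1A1* and *COL3A1* were not called at 0.07 and 0.31. The part of mesenchymal cells in the fall of *KCNJ8* was not tested.

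*KCNJ16*, the most abundant member by length, fell by 0.36 (SE 0.0568, interval -0.47 to -0.24, adjusted p = 5.93e-09) to 78.2% of its level on FN. It lies at chr17:70053429-70135608 on the plus strand of GRCh38, with *KCNJ2* 33.1 kb away. *KCNJ2*, a strong inward rectifier, was not called, at 0.18 (SE 0.192, adjusted p = 0.550), and *KCNJ13*, of transporting epithelia, stood at -0.34 (SE 0.170, adjusted p = 0.118). Of the 3636 exonic bases of *KCNJ13*, 810 lie opposite the protein-coding gene *GIGYF2* and 271 overlap a long noncoding RNA on the same strand.

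Of the two-pore domain genes, those called at 24 h were a pair of neighbours on chromosome 6. *KCNK5*, which makes an acid-inhibited leak channel of epithelia, lies at chr6:39188971-39229475 and rose by 0.53 (SE 0.137, interval 0.26 to 0.79, adjusted p = 0.000801), or 1.44-fold. *KCNK17*, an alkaline-activated channel known from the pancreas, lies 69.5 kb away at chr6:39299001-39314461 and rose by 1.33 (SE 0.341, interval 0.66 to 1.99, adjusted p = 0.000644), at a mean normalized count of 31.0. The third gene of the cluster, the beta cell channel *KCNK16*, lies at chr6:39314698-39322968, with its 3′ end 0.237 kb from *KCNK17*. It was listed only at 24 h, at 0.81 (SE 0.445, interval -0.07 to 1.68, adjusted p = 0.173), so a change like those of its neighbours lies inside its interval. All 3 are on the minus strand. *KCNK6*, a relative of *KCNK1*, was not called at 0.09 (interval -0.06 to 0.24).

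The start-site regions of the called genes are shown for those with the largest changes among members that reached a mean normalized count of 100 and had 1 entry in the RefSeq table, 3 that fell and *KCNJ6* and *KCNK5* that rose, with *KCNK17* as the neighbour of *KCNK5*. Each runs 5′ to 3′ on the gene's strand from 250 bases before to 50 bases after the RefSeq start on GRCh38.p14. Capitals mark CANNTG, the E-box that basic helix-loop-helix factors such as NEUROG3 can bind, and GGAATG or its complement CATTCC, the core that TEAD factors, the partners of YAP, can bind. Both motifs were searched on both strands, and they do not overlap each other in these windows. The regions are *KCNJ6* at chr21:37916408-37916707 (minus strand), *KCNK5* at chr6:39229426-39229725 (minus), *KCNK17* at chr6:39314370-39314669 (minus), *KCNJ8* at chr12:21774657-21774956 (minus), *KCND2* at chr7:120272925-120273224 (plus) and *KCNJ3* at chr2:154698445-154698744 (plus). The whole windows of *KCNJ6*, *KCNJ8* and *KCNJ3* lie inside the longer GENCODE spans of these genes. The *KCNK17* start of RefSeq lies slightly inside its span.
KCNJ6: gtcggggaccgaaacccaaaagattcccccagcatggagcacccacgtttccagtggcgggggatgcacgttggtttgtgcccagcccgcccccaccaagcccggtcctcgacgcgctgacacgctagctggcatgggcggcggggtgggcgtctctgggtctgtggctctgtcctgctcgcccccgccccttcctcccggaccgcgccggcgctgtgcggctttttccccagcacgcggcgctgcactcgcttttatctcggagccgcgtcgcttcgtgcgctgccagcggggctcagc
KCNK5: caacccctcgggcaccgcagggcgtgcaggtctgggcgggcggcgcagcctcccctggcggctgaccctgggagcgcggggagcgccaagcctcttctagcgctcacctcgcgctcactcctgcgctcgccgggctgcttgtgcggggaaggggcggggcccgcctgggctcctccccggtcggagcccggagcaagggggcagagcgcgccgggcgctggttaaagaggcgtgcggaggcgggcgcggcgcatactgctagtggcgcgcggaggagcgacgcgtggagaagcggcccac
KCNK17: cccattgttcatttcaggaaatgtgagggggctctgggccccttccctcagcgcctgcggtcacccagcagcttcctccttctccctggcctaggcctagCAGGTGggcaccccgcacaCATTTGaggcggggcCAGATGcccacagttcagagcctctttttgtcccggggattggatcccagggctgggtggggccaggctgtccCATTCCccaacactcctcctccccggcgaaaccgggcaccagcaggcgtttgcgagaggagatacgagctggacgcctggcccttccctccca
KCNJ8: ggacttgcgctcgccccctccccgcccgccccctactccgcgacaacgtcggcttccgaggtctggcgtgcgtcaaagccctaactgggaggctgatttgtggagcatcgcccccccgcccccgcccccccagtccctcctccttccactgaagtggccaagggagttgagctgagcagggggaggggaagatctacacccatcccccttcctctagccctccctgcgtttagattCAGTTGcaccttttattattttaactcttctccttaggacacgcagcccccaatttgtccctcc
KCND2: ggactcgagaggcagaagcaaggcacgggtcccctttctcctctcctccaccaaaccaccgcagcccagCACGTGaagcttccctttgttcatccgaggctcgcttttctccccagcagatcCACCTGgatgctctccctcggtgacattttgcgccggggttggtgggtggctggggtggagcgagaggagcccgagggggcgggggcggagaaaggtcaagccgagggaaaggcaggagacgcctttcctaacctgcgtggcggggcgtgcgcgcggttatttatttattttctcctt
KCNJ3: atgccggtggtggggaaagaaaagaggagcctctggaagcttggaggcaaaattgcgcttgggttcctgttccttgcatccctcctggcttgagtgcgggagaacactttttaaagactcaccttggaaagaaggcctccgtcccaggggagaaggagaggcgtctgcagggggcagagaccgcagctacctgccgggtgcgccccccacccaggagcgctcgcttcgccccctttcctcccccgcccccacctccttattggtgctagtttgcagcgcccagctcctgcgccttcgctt
The *KCNK17* window held 3 E-boxes and the only GGAATG core of the 6 windows. *KCND2* held 2 E-boxes, *KCNJ8* held 1, and none was found in *KCNJ6*, *KCNK5* or *KCNJ3*. Of all 35116 windows of this length in the table, 68.7% held an E-box and 14.03% the GGAATG core, so such matches are common and say nothing of binding. The windows of *KCNK5* and *KCNJ6* were rich in CpG, with 39 and 33 against a median of 14, whereas that of *KCNK17*, which rose with its neighbour, held 12. Of the 73 genes, 54 had an entry in the table.

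Accessory subunits other than *KCNIP1* gave 1 further call in each direction. *KCNE4*, a single-span subunit that inhibits KCNQ1 channels, rose by 0.62 (SE 0.206, adjusted p = 0.0121), and *KCNAB1*, a beta subunit that speeds inactivation of KCNA channels, fell by 0.53 (SE 0.168, adjusted p = 0.00695). *KCNMB4*, a beta subunit of the large calcium-activated channel and the most abundant accessory gene by length, was not called, at 0.06 with an interval from -0.09 to 0.22. The large calcium-activated pore itself, *KCNMA1*, stood at 0.68 (SE 0.365, adjusted p = 0.156) at a mean normalized count of 19.5. *KCNT2*, a sodium-activated channel, fell by 0.17 (SE 0.0657, adjusted p = 0.0359), the smallest called change, and its call was lost with a t distribution (adjusted p = 0.0875).

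**Figure D3:**
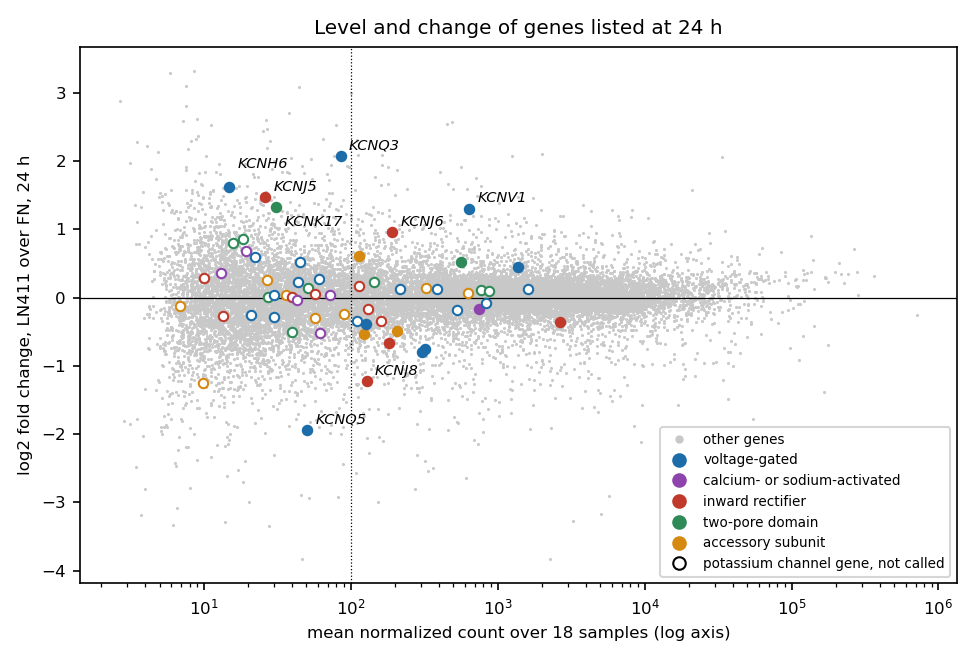
Log2 fold change of LN411 over FN at 24 h (y axis) against mean normalized count on a log axis (x axis) for potassium channel genes listed at 24 h, coloured by role and filled where called, over other genes in grey, with a dotted line at 100. Of 19 called genes shown, 5 lie below a count of 100, among them *KCNQ3*, *KCNQ5*, *KCNJ5* and *KCNH6*, while the potassium channel gene with the highest count, *KCNJ16*, sits at -0.36.

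Of the 21 called genes, 15 changed by at least 0.5, and 6 had a mean normalized count below 100. Among members of at least 100, 15 were not called, and for 9 of these the whole interval lay within 0.5 of 0. Of 28 uncalled members below 100, that held for 2, so at this precision changes of that size were not excluded for most of these uncalled scarce genes. A further 9 members were not listed at 24 h.

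The change in the LN411 effect over time was tested as the difference between log2 fold changes of different libraries. Between 3 and 6 h no member differed among 61 (0 at an unadjusted p under 0.05), where 0.257% of all genes did. From 6 to 24 h the effect became higher for 5 of 61 members and lower for 5 (8.2% each), against 6.24% and 6.51% of all genes. From 3 to 24 h it became higher for 6 of 58 (10.3%) and lower for 9 (15.5%), against 8.85% and 8.18%. *KCNV1* and *KCNQ3* had the clearest rises after 6 h, of 1.28 (SE 0.120) and 2.002 (SE 0.309), and *KCNS3*, *KCNJ16* and *KCNJ8* the clearest falls, of -0.67 (SE 0.139), -0.39 (SE 0.0806) and -1.13 (SE 0.261). *KCNB2*, a delayed rectifier chosen after its values were seen, went from -0.97 at 6 h to 0.60 at 24 h without a call at either time, and its difference of 1.57 (SE 0.519, adjusted p = 0.0238) passed the test but not with a t distribution (adjusted p = 0.101). With a t distribution the members that passed from 6 to 24 h were 3 higher and 3 lower, and from 3 to 24 h 3 higher and 4 lower.

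**Figure D4:**
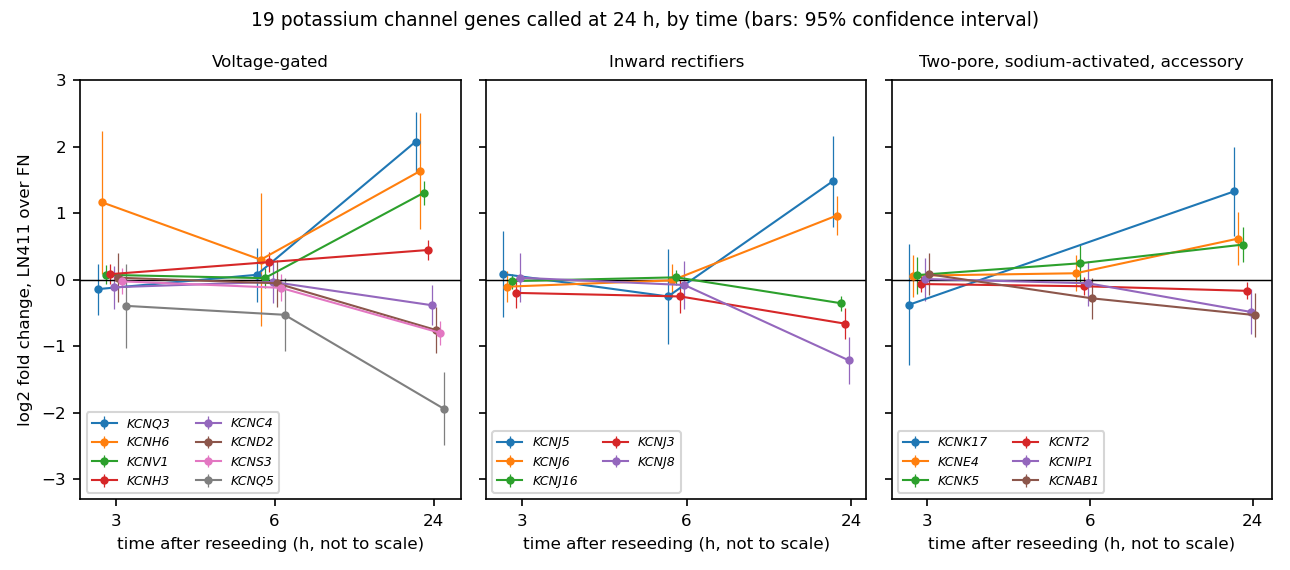
Log2 fold change of LN411 over FN (y axis, bars are 95% confidence intervals) at 3, 6 and 24 h (x axis, not to scale) for 19 potassium channel genes called at 24 h, in 3 panels by role. *KCNV1* stands at 0.07, 0.02 and 1.30 and *KCNJ8* at 0.03, -0.08 and -1.22, and both were called only at 24 h.

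The sign of the 24 h change was present at 3 h in 14 of the 21 called genes, and at 6 h in 16 of the 20 listed there. *KCNK17* was not listed at 6 h. None of the 21 was called at 3 h, and only *KCNH3* was called at 6 h. The same share over all genes called at 24 h was not computed. Nothing particular to the potassium channel genes, and no early onset, is read from these counts.

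Of 10 channel genes known from islet electrophysiology, which overlap the groups above, all were listed at 24 h and 3 rose (*KCNH6*, *KCNK17* and *KCNJ6*), with none falling, where 16.7% of all genes rose and 12.8% fell. Their median log2 fold change was 0.46, against 0.01 for all genes. Among the 10 partner genes outside the family, 7 were listed and 2 rose, *ABCC8* and *DPP10*. With so few genes, nothing particular to either list is read from these counts. Markers of other cell types were also read at 24 h. *STMN2*, a neuronal gene that endocrine cells also express, fell by 1.06 (SE 0.118, adjusted p = 1.09e-17), while the neural genes *SOX1* and *OLIG2* were not in the table. The endothelial gene *PECAM1* stood at 0.19 (SE 0.383, adjusted p = 0.766) and *CDH5* was not listed at that time. The hepatic gene *AFP* rose by 0.40 (SE 0.100, adjusted p = 0.000531) and *ALB* stood at 0.35 (adjusted p = 0.189). The part of such cells in the channel values was not tested.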

How the data were processed

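Bulk polyadenylated RNA was sequenced. The authors aligned reads with STAR 2.7.2d to hg38 with GENCODE annotation, obtained gene counts, and contrasted the 2 matrices within each time by DESeq2 1.34.0. The model formula, shrinkage and use of strand in counting are not given in the sources used here. The deposited mean count is a signal, the average of size-factor-scaled counts over the 18 samples. The deposited log2 fold change and its standard error come from the authors' fit, the deposited Wald statistic is a score, and the deposited p-value and adjusted p-value are two-sided. A file of values per sample was not used here, so no count model was run, and the deposited estimates of the comparison, which are the authors' own, stand in for it.

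Computed here were p-values from the log2 fold change and SE with the normal distribution, their Benjamini-Hochberg adjustment over genes with a deposited adjusted p-value, intervals, and differences between times, which treat the times as independent although their samples share replicate numbers in the labels. The largest gap between recomputed and deposited adjusted p-values was 9.72e-06. Independent filtering left genes above a mean of 17.1 at 3 h and 108 at 6 h with an adjusted p-value, and set no limit at 24 h. The test code was checked on log2 fold changes drawn with the deposited SE from a normal distribution. Such a check cannot show whether normal p-values suit 3 samples per group.

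Groups were taken from the labels. The paper calls the samples biological replicates, but whether they came from separate differentiations is not known here. The p-values set each log2 fold change against its SE, which rests on these samples. The members, role groups, lists and tests were chosen with earlier results of these data known. Named were members of at least 100 called at 3 or 6 h, the 14 called members of smallest p in each direction at 24 h, the 2 highest per kilobase in each role group, *KCNJ11*, *KCNJ8*, the 2 members on each side of 100, *ABCC8* and *ABCC9*. Some results for single genes of this rule are left out of the text and figures but enter the counts. Other genes named belong to the lists or were chosen after their values were seen. Positions and lengths are from GENCODE v44 on GRCh38, matched for all 73 genes. *KCNJ12* and *KCNE1* have near-identical copies and are uncertain. As alternatives, the adjusted p-value threshold was set to 0.01, all listed genes or those with a mean of at least 100 were adjusted over, a log2 fold change limit of 0.5 was added, p was taken from a t distribution with 12 degrees of freedom, trends with GC content and length were removed, and the median transcript length was used. Tools were scipy 1.17.1, pandas 2.3.3, numpy 2.4.6 and matplotlib 3.10.9 under Python 3.11.15.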

Additional observations from a re-analysis of the deposited data

Results flagged for a closer look

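For 13 called members the LN411 effect itself differed between times, which was tested as the difference between the log2 fold changes, with Benjamini-Hochberg adjustment over all genes listed at both times. The 24 h value that gave the call enters both differences, so they are no separate support for the calls. From 6 to 24 h the effect became higher for 6.24% of all genes and lower for 6.51%. From 3 to 24 h the shares were 8.85% and 8.18%. From 6 to 24 h the difference was positive for *KCNV1* at 1.28 (adjusted p = 2.38e-24), *KCNQ3* at 2.002 (4.46e-09), *KCNJ6* at 0.97 (1.69e-05) and *KCNJ5* at 1.73 (0.00742). Over the same span it was negative for *KCNS3* at -0.67 (2.98e-05), *KCNJ16* at -0.39 (3.49e-05), *KCNJ8* at -1.13 (0.000288), *KCNQ5* at -1.41 (0.00463) and *KCND2* at -0.70 (0.0441). All 9 also differed between 3 and 24 h, a difference that uses the same 24 h value. With a t distribution the calls of *KCNQ5* (0.0509), *KCNJ5* (0.0615) and *KCND2* (0.136) from 6 to 24 h were lost.

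From 3 to 24 h the positive differences were *KCNV1* at 1.23 (adjusted p = 3.83e-23), *KCNQ3* at 2.22 (1.23e-11), *KCNJ6* at 1.07 (6.91e-07), *KCNH3* at 0.36 (0.00841), *KCNK17* at 1.71 (0.0223) and *KCNJ5* at 1.39 (0.0254). The negative ones were *KCNS3* at -0.77 (4.58e-07), *KCNJ8* at -1.24 (4.14e-05), *KCNJ16* at -0.33 (0.000538), *KCNQ5* at -1.54 (0.00296), *KCND2* at -0.78 (0.0171), *KCNJ3* at -0.46 (0.0365) and *KCNAB1* at -0.61 (0.0486). With a t distribution those of *KCNH3* (0.0563), *KCND2* (0.0766), *KCNK17* (0.0866), *KCNJ5* (0.0924), *KCNJ3* (0.110) and *KCNAB1* (0.127) were lost. Outside the called members, *KCNB2* from 6 to 24 h and *KCND1* from 3 to 24 h, at -0.32 (0.0362), also passed, were chosen after their values were seen, and were lost with a t distribution (0.101 and 0.109). The labels give the same replicate numbers, 1 to 3, in every group, and any dependence between the times was not tested.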

How the results depend on the processing

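No paired analysis was possible because values per sample were not used here, although the labels give replicate numbers 1 to 3 in every matrix and time group, and leaving out single samples was not run for the same reason. Of the named genes' log2 fold changes, 5 calls were lost with a t distribution (*KCNH3* and *KCNK1* at 6 h, *KCNC4*, *KCNIP1* and *KCNT2* at 24 h) and 2 after GC content and length trends were removed (*KCNH3* at 6 h, *KCNC4* at 24 h), with the sign kept. Removing those trends turned the sign of 5 uncalled values, to -0.0257 for *ABCC8*, -0.0193 for *KCNIP1* and -0.0044 for *KCNN1* at 3 h and to 0.0371 for *KCNC4* and 0.0710 for *KCNJ6* at 6 h.

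The 2 members higher at 6 h became 0 with a t distribution, with an adjusted p under 0.01 and with a limit of 0.5, and 1 after trend removal. At 24 h the 9 higher became 5 at a mean of at least 100 and the 12 lower became 7 with a limit of 0.5. From 6 to 24 h the 5 higher became 2 at a mean of at least 100 and 3 with a t distribution, and the 5 lower 3 with a t distribution. From 3 to 24 h the 6 higher became 3 under either, and the 9 lower became 4 with an adjusted p under 0.01 or a t distribution. Fewer genes are tested at a mean of at least 100; the other causes were not tested. Without independent filtering, no call of a named gene changed. Precision limits the scarce genes.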
